A study of Mus musculus with 12 samples.

Results

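The mitotic spindle and G2/M genes described here are a set of 50 genes chosen for their known roles in the last stretch of the cell cycle, from the kinases that open mitosis to the proteins that cut the daughter cells apart. Earlier results of these data were known at the choice, so counts of members called may not be independent of them. They were followed in B16-OVA, a melanoma cell line of the mouse engineered to make ovalbumin, which was grown as a monolayer culture. A gene was read from a probe set that the array annotation pairs with that gene alone, taking the brightest where there were several, and 49 of the 50 had one. The remaining gene, Ccnb1 (cyclin B1), was not analysed here. The 49 are part of 18193 genes with a probe set of their own.

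All groups were the same line, with no genetic difference between them in the labels. The cells received either the MEK kinase inhibitor GDC-0623 (MEKi) at 100 nM or its solvent DMSO at the matching concentration, and were harvested after 24 h or 72 h. Each of the 4 groups had 3 arrays, 12 in all, of an Affymetrix whole-genome mouse type, and values are log2 RMA signals, on which a difference of 1 is a 2-fold change. The labels do not say that the 3 arrays came from separate cultures, and p-values therefore describe only the spread among these arrays, which may be technical. The number of arrays limits the precision.

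Cells make most of the proteins in this set only in late S, G2 and M phase. Cyclin B with CDK1 starts mitosis, polo-like and Aurora kinases shape the spindle, the kinetochore ties chromosomes to microtubules, and the checkpoint holds anaphase until every chromosome is attached. The anaphase-promoting complex then marks securin and the cyclins for destruction, and kinesins and the central spindle guide cytokinesis. The genes are repressed by the DREAM complex in resting cells and switched on by the MuvB complex with B-MYB and FOXM1, through a promoter element called the CHR. The RAF, MEK and ERK cascade drives melanoma cells from G1 into S phase, and MEK inhibitors are known to hold such cells in G1.

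The labelled line fitted its markers. All 7 melanocyte markers had mean signals between 12.198 and 14.299, against a median probe set of 5.363, and 2 of them were higher with MEKi at 24 h and 0 at 72 h. Below that median lay 3 of 5 immune, 3 of 5 fibroblast, 3 of 4 endothelial and 3 of 4 epithelial markers, and the brightest of the rest averaged 6.543. None of these was called between MEKi and DMSO at 72 h, while at 24 h 1 immune, 1 fibroblast and 1 endothelial marker were higher with MEKi (Lyz2 by 0.38, Col1a2 by 0.69 and Vwf by 0.98), and their part in the results at 24 h was not tested. Genes induced by ERK signaling, listed as a check on the drug, were lower with MEKi for 8 of 10 at 24 h and 6 of 10 at 72 h, with Phlda1 higher at 72 h. Array medians lay between 5.31 and 5.42.

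The starts of these genes share sequence that the choice of members did not use. The RefSeq promoter table (GRCm38.p6) held windows for 43 of the 50 members, 47 windows in all, each running from 250 bases before a start that the table lists to 50 after it. That start lay within 50 bases of the outermost start of the gene for 36 windows and 71 to 3852 bases inside the gene for the other 11, among them those of Kif2c, Kif14 and Pttg1. The CHR motif, searched as TTTGAA on either strand, was present in 33 of the 47 windows (70.2%) and in 17.9% of all 32851 windows of the table. It was present in 72.2% of the 36 windows at the outermost start. In the 97 windows of the other mitotic genes listed outside the set, its share was 41.2%, that of CCAAT, described next, 60.8%, and that of both together 29.9%. Within 50 bases of the start on either side it was found in 61.7% of the member windows and 4.9% of all. The CCAAT box, the site of the factor NF-Y, was searched as CCAAT on either strand and was present in 74.5% of the member windows and 37.4% of all. At least 2 such boxes stood in 44.7% of the member windows and 11.7% of all, and 59.6% against 7.0% held CHR and CCAAT together. A match in 1 member window shared a base with a match of the other motif. Member windows had a median GC content of 59.0%, and all windows 52.7%. These are descriptions of letters in a window, and nothing about binding was measured.

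**Figure D1:**
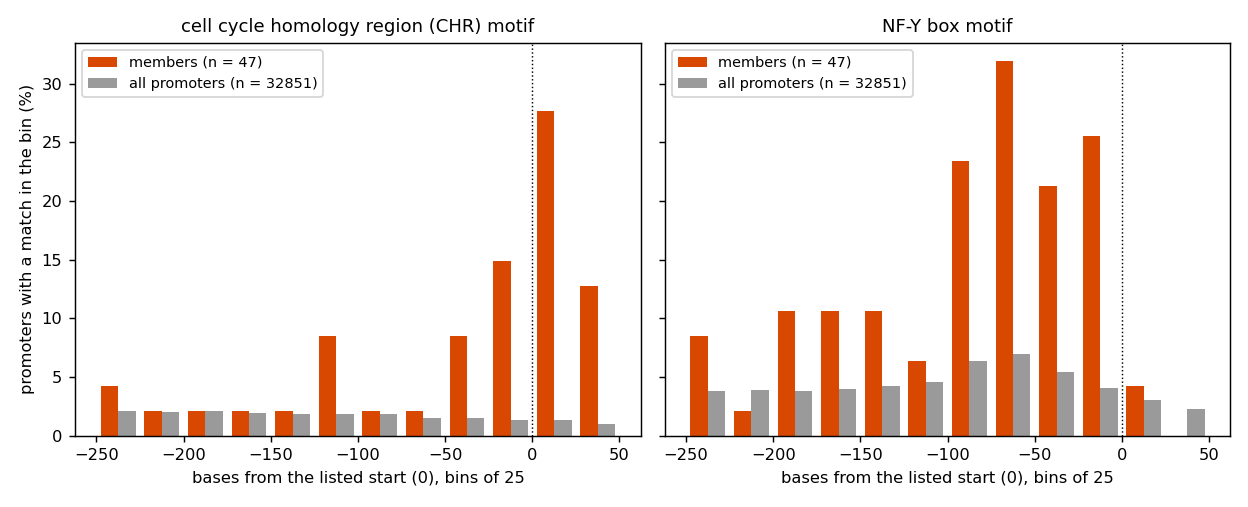
Share of promoter windows (%, vertical axis) with a motif match in each bin of 25 bases, by distance from the start listed for the window (horizontal axis, in bases), for the CHR motif (left) and the CCAAT box bound by NF-Y (right). Orange bars are the 47 member windows and gray bars all 32851. CHR matches of members gather around the start, with 27.66% of windows in the bin just after it, and CCAAT boxes lie before it, with 31.91% of windows between 75 and 50 bases before the start.

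The windows of 5 members are shown because they set the motif beside the result. Ccnb2, Cdk1, Plk1 and Kif11 hold both motifs and fell with MEKi at 72 h, while Nusap1 holds neither and had the largest difference between the MEKi effects at 72 h and 24 h. All 5 are windows at the outermost start of the gene. Letters run 5' to 3' on the strand of the gene, capitals mark CHR and CCAAT matches on either strand, and positions count from the gene start as 1, with -1 the base before it.
Ccnb2: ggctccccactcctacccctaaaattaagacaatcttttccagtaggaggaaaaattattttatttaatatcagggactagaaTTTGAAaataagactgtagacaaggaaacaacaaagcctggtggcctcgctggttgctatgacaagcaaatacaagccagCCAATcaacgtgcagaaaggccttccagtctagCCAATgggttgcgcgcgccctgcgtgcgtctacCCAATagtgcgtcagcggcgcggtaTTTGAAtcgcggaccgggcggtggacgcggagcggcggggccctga
Cdk1: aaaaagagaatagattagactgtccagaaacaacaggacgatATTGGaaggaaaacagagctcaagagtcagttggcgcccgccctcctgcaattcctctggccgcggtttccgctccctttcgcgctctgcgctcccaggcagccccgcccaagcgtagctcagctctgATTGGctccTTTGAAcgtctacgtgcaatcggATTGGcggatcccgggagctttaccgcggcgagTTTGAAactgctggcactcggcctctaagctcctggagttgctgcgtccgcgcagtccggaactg
Plk1: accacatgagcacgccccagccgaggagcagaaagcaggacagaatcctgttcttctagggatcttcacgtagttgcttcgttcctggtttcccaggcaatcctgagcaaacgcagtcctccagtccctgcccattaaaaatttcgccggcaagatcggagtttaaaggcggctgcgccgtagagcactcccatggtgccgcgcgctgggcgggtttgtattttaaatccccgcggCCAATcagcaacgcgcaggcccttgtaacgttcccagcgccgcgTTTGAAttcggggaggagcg
Kif11: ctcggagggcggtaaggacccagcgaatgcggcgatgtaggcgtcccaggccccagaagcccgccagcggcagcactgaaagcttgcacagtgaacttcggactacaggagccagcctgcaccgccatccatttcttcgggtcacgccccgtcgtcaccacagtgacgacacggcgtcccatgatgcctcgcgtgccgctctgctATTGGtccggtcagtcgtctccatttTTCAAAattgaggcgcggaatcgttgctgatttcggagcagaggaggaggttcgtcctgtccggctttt
Nusap1: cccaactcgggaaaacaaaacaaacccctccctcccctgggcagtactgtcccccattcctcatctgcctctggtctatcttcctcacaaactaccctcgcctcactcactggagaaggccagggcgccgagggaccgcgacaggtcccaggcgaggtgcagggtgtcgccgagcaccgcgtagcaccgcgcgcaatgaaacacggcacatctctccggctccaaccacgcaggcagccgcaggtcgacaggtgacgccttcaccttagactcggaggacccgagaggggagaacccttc

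In GRCm38.p6 these windows lie at chr9:70421505-70421804 on the minus strand for Ccnb2, chr10:69352863-69353162 on the minus strand for Cdk1 and chr7:122159185-122159484 on the plus strand for Plk1. Those of the other two are chr19:37376132-37376431 on the plus strand for Kif11 and chr2:119618048-119618347 on the plus strand for Nusap1. The Ccnb2 window has CHR matches at -167 and 5 and CCAAT boxes at -87, -54 and -21, an even spacing of 33 bases. Cdk1 has CHR matches at -71 and -15 with boxes at -208, -80 and -48. Plk1 has a CHR match at 31 and a box at -14, and Kif11 a CHR match at -19 and a box at -45. Whether a match parts the members by response cannot be told here, since nearly all measured members with a window were called lower. The search also took TTTGAA alone, and some windows without a match, such as those of Cdc25b and Pttg1, lay inside the gene. The 31 measured members with a CHR match in a window had a median log2 difference of -0.66 at 72 h, with 29 called lower, and the 11 without one had -0.67, with 10 called lower. Kif15, whose signal did not fall, has CHR matches at -234 and -19.

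At 24 h the set had moved little. MEKi arrays were lower than DMSO arrays in mean for 42 of the 49 members, with a median log2 difference of -0.14 where the median of all 18193 genes was 0.0067. Called at an adjusted p under 0.05 were 6 members, all lower, which are Cdc25b, Melk, Cenpa, Cenpk, Incenp and Ncapd2, and 0 were higher. Of all genes 5.86% were called lower and 5.01% higher. Among genes brighter than the median probe set, as all members but 1 were, 9.15% were called lower. The share of these brighter genes called higher was above 5.01% too. At unadjusted p under 0.05 limma gave 21 members lower and 1 higher. The share of all genes at this unadjusted threshold was not counted in any comparison, so such counts have no background beside them. All 3 MEKi arrays lay below all 3 DMSO arrays for 27 members, against 18.3% of all genes. Whether fewer cells were in G2 and M or each cell held less of these RNAs cannot be told apart in bulk RNA, at this time or later.

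Ncapd2, a subunit of the condensin that compacts mitotic chromosomes, had the largest change at 24 h on the probe sets used. It read 10.96, 10.79 and 10.91 on the DMSO arrays and 10.49, 10.46 and 10.53 on the MEKi arrays, a log2 difference of -0.39 ± 0.07 (SE, adjusted p = 0.0126). The groups were clearly apart. Cdc25b, the phosphatase that activates cyclin B with CDK1, read 9.36, 9.31 and 9.36 with DMSO and 8.93, 8.98 and 9.10 with MEKi, a difference of -0.34 ± 0.07 (adjusted p = 0.0200). Incenp, the scaffold of the chromosomal passenger complex, went from 11.43, 11.50 and 11.48 to 11.11, 11.15 and 11.22, a difference of -0.31 ± 0.06 (adjusted p = 0.0210). In these genes too no MEKi array reached a DMSO array, and the third MEKi array was the nearest. Cenpa, the histone that marks the centromere, differed by -0.29 (adjusted p = 0.0241), Cenpk, a protein of the inner kinetochore, by -0.27 (adjusted p = 0.0285), and Melk, a kinase expressed in G2 and M, by -0.25 (adjusted p = 0.0401). Melk and Cenpk were not called with the replicate number as a block (adjusted p = 0.0651 and 0.0543), while Espl1 was (0.0495). Melk and Cenpa were not called with all 12 arrays in 1 fit. With the mean of a gene's probe sets 4 of the 6 were not called. These were Cenpa (-0.02, adjusted p = 0.887 by limma), Cenpk (0.179), Incenp (0.111) and Ncapd2 (0.0693), while 7 other members were.

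The number of calls at 24 h depended on the arrays. It was 0 without DMSO array 1, DMSO array 3, MEKi array 1 or MEKi array 2, 1 without DMSO array 2, and 12 without MEKi array 3, while the median of the members lay between -0.16 and -0.12 in these fits. It was 15 over brighter probe sets and 18 with a trended and robust prior. On the probe sets used, no kinesin, no spindle checkpoint gene and no cytokinesis gene was called at 24 h in the fit of the 6 arrays. This depended on the probe set. The other probe sets of Kif22 were called lower in that fit (both -0.32, adjusted p = 0.043 and 0.049 by limma). In other roles a probe set not used was called lower where the one used was not. This was so in Tpx2 (-0.44, adjusted p = 0.00845 by limma) and in Cenpf (-0.35, adjusted p = 0.0353). The remaining probe sets of both genes were not called. With the mean of a gene's probe sets Kif11, Kif22 and the checkpoint gene Bub1 were called lower. Kif11, the plus-end motor that pushes the spindle poles apart, read 9.51, 9.55 and 9.57 with DMSO and 9.50, 9.49 and 9.48 with MEKi. Nusap1, a microtubule-bundling protein, had the same mean of 10.55 in both groups. Top2a, the topoisomerase that untangles sister chromatids, read -0.21 (adjusted p = 0.0957), and Plk1, the polo-like kinase, -0.23 (adjusted p = 0.118).

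At 72 h nearly the whole set was lower with MEKi. Of the 49 members 45 were called lower and 0 higher, where 5.14% of all genes were called lower and 4.03% higher. Among genes brighter than the median probe set these shares were 7.95% and 6.19%. The median log2 difference was -0.66 over the members and 0.01 over all genes. The 3 MEKi arrays lay below the 3 DMSO arrays for 46 members, against 14.4% of all genes. Falls of the called members ran from -0.38 to -0.94, with a median of 1.59 times lower, and none reached 2-fold. The member median per array was 10.10, 10.23 and 10.06 with DMSO and 9.43, 9.45 and 9.42 with MEKi at 72 h, and 10.52, 10.51 and 10.56 with DMSO and 10.40, 10.36 and 10.38 with MEKi at 24 h. The MEKi arrays at 72 h thus stood below all others. At unadjusted p under 0.05 limma gave 46 members lower and 1 higher, with no share of all genes counted.

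**Figure D2:**
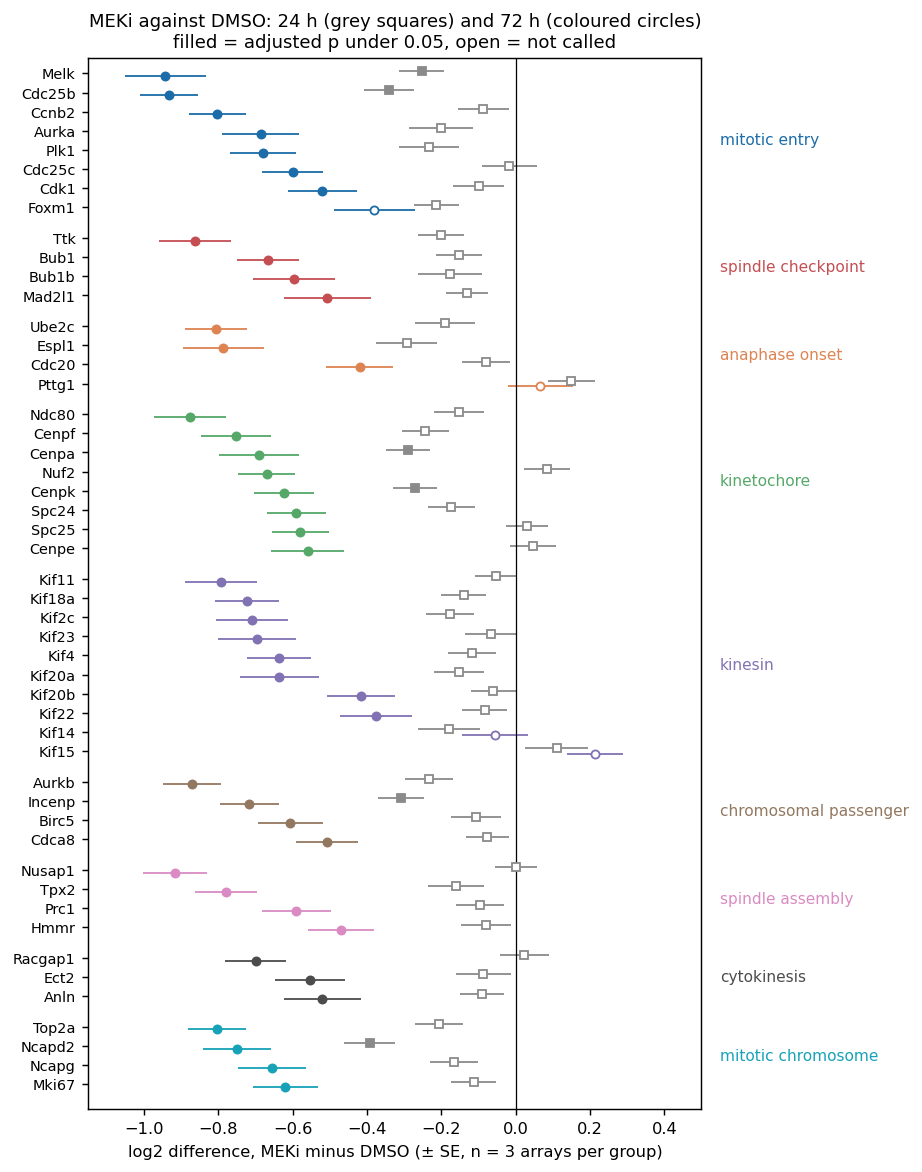
Log2 difference between MEKi and DMSO (horizontal axis) for each of the 49 members, grouped by role, at 24 h (gray squares) and 72 h (colored circles), with bars for the SE of the limma fit (3 arrays per group) and filled symbols for adjusted p under 0.05. At 24 h 6 squares are filled and at 72 h 45 circles, and Foxm1, Pttg1, Kif14 and Kif15 are the open circles.

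Among the regulators of mitotic entry 7 of 8 were lower at 72 h, with a median of -0.68. Ccnb2, the other mitotic cyclin of the B type, read 10.97, 10.99 and 10.98 with DMSO and 10.12, 10.20 and 10.21 with MEKi, a difference of -0.80 ± 0.08 (adjusted p = 0.000744). Cdk1, the kinase that it activates, read 11.36, 11.54 and 11.28 with DMSO and 10.88, 10.80 and 10.94 with MEKi, a difference of -0.52 ± 0.09 (adjusted p = 0.00979). The kinase had the smaller difference of the pair, and its DMSO arrays were more scattered. Cdc25b went from 8.75, 8.76 and 8.74 to 7.76, 7.81 and 7.88, which is 1.91 times lower, and its relative Cdc25c was 1.52 times lower. Melk had the largest fall of the set, from 10.01, 10.14 and 9.86 to 8.98, 8.95 and 9.25 (-0.94 ± 0.11, adjusted p = 0.00157). Plk1 fell by 0.68 and Aurka, the Aurora kinase of the spindle poles, by 0.69 on the log2 scale (adjusted p = 0.00253 and 0.00470). Foxm1, the transcription factor that switches on many of these genes, read 8.75, 8.97 and 8.56 with DMSO and 8.46, 8.36 and 8.32 with MEKi. Its arrays did not overlap, but the difference of -0.38 ± 0.11 had an adjusted p of 0.0699. Foxm1 was called when all 12 arrays shared 1 fit, over brighter probe sets, with the trended and robust prior and without DMSO array 3. Its other probe sets above the median signal had smaller differences, -0.12 and -0.29 (adjusted p = 0.504 and 0.206 by limma). The mean of its probe sets gave -0.22 (adjusted p = 0.138). The call of Cdk1 was lost without MEKi array 2.

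The spindle checkpoint genes were all 4 called lower. Ttk, the kinase MPS1 that starts checkpoint signaling at the kinetochore, read 8.18, 8.43 and 8.19 with DMSO and 7.45, 7.31 and 7.45 with MEKi (-0.86 ± 0.10, adjusted p = 0.00135). Bub1, the kinase that recruits the other checkpoint proteins, read 11.19, 11.30 and 11.12 against 10.49, 10.59 and 10.53 (-0.67 ± 0.08, adjusted p = 0.00215). Bub1b (BUBR1) and Mad2l1 (MAD2), which hold back the anaphase-promoting complex, fell by 0.60 and 0.51. The call of Mad2l1 was lost without DMSO array 1 or 2 or MEKi array 2 or 3, and that of Bub1b without MEKi array 2.

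Of the anaphase genes 3 of 4 were lower. Ube2c, the ubiquitin-conjugating enzyme of the anaphase-promoting complex, read 11.88, 11.98 and 11.92 with DMSO and 11.03, 11.14 and 11.19 with MEKi (-0.81 ± 0.08, adjusted p = 0.00102). Espl1, the protease separase that cuts cohesin, fell by 0.79 (adjusted p = 0.00320). Cdc20, the activator of the complex that the checkpoint blocks, fell by 0.42 (adjusted p = 0.0227), and this call held only with all arrays or without DMSO array 3. Pttg1, the securin that holds separase inactive, was not called. It read 11.72, 11.74 and 11.55 with DMSO and 11.71, 11.69 and 11.81 with MEKi, overlapping ranges with a difference of 0.07 ± 0.09 (adjusted p = 0.749). Its other 2 probe sets differed by 0.06 and 0.16.

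All 8 kinetochore genes were lower at 72 h, between -0.56 and -0.88. Ndc80 and Nuf2 form the arm of the NDC80 complex that grips microtubules, and Spc24 and Spc25 form its inner end. Ndc80 read 8.87, 8.88 and 9.04 with DMSO and 7.94, 8.01 and 8.21 with MEKi (-0.88 ± 0.10, adjusted p = 0.00135). Nuf2 read 9.97, 10.01 and 9.94 against 9.33, 9.32 and 9.26 (-0.67 ± 0.08, adjusted p = 0.00156). The inner pair, Spc24 and Spc25, differed by -0.59 and -0.58. All 4 subunits thus moved together, on arrays with no overlap. Cenpa differed by -0.69 (adjusted p = 0.00540) and Cenpf, a large kinetochore protein of G2 and M phase, by -0.75. Cenpe, the kinesin motor that carries chromosomes to the spindle equator, read 9.78, 9.79 and 10.05 with DMSO and 9.23, 9.33 and 9.38 with MEKi, the smallest change of the role (-0.56 ± 0.10, adjusted p = 0.00888). Cenpk was not called where all probe sets of a gene were averaged (adjusted p = 0.0903).

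Of the 10 kinesins 8 were lower. Kif11 had the largest fall, from 9.23, 9.38 and 9.24 with DMSO to 8.62, 8.34 and 8.51 with MEKi (-0.79 ± 0.10, adjusted p = 0.00183). Kif18a, which dampens chromosome oscillation, Kif2c (MCAK), which takes microtubules apart at centromeres, and Kif23, the motor of the central spindle, fell by 0.72, 0.71 and 0.70. Kif4, a chromosome-bound kinesin, fell by 0.64, and so did Kif20a, the kinesin MKLP2 of cytokinesis, at 9.69, 9.83 and 9.55 with DMSO and 8.88, 9.13 and 9.15 with MEKi (adjusted p = 0.00747). Kif20b and Kif22, at -0.42 and -0.38, were at the low end, and Kif22 depended on the probe set. Its brightest one, used here, differed by -0.38 (adjusted p = 0.0465), and its 2 others by -0.86 and -0.95. The call of Kif20b held only with all arrays or without DMSO array 3, and that of Kif22 only with all or without MEKi array 1.

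The other 2 kinesins, Kif14 and Kif15, did not pass the test. Kif14, which acts at the midbody, read 3.69, 3.68 and 3.48 with DMSO and 3.59, 3.50 and 3.59 with MEKi on its only probe set. Its mean of 3.60 lay below the median probe set of 5.363 of all, as that of no other member did. Kif15, a motor that backs up Kif11 on the spindle, read 6.06, 6.09 and 6.06 with DMSO and 6.26, 6.29 and 6.30 with MEKi. All 3 MEKi arrays were higher, by 0.21 ± 0.08, with an adjusted p of 0.137. It too has only 1 probe set.

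The chromosomal passenger complex corrects wrong attachments and directs cleavage, and its 4 subunits were all lower. Aurkb, its kinase, read 10.49, 10.52 and 10.41 with DMSO and 9.62, 9.61 and 9.58 with MEKi, a difference of -0.87 ± 0.08 (adjusted p = 0.000671). Incenp fell by 0.72, Birc5 (survivin) by 0.61 and Cdca8 (borealin) by 0.51. No MEKi array reached a DMSO array in any of the 4, and the kinase had the largest change. Among spindle assembly factors, Nusap1 went from 10.66, 10.63 and 10.76 to 9.67, 9.78 and 9.85 (-0.92 ± 0.09, adjusted p = 0.000671). Tpx2, which activates Aurora A on the spindle, fell by 0.78, Prc1, which bundles the central spindle, by 0.59, and Hmmr, a spindle pole protein, by 0.47, a call that was lost without MEKi array 1. Tpx2 depended on the probe set. Its next brightest one was called at -1.04, and its dimmer ones at -0.03 and -0.27 were not (adjusted p = 0.892 and 0.220 by limma).

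The 3 cytokinesis genes and the 4 genes of mitotic chromosomes were lower as well. Racgap1, the partner of Kif23 in centralspindlin, read 10.45, 10.52 and 10.49 with DMSO and 9.73, 9.75 and 9.88 with MEKi (-0.70 ± 0.08, adjusted p = 0.00160). Ect2, the exchange factor that centralspindlin brings to the equator, fell by 0.55, and Anln, the anillin of the contractile ring, by 0.52. The call of Anln was lost without DMSO array 1 or MEKi array 1. Top2a read 11.91, 12 and 11.97 with DMSO and 11.14, 11.12 and 11.21 with MEKi (-0.80 ± 0.08, adjusted p = 0.000849). The condensin subunits Ncapd2 and Ncapg fell by 0.75 and 0.66. Mki67, which coats mitotic chromosomes and is used as a mark of cycling cells, read 11.63, 11.80 and 11.65 against 11.04, 11.16 and 11.02 (-0.62 ± 0.09, adjusted p = 0.00336). By role, medians at 72 h ran from -0.55 in cytokinesis to -0.70 in mitotic chromosomes, a narrower range than that within each role, and no role was tested against another. Leaving out 1 array gave 39 to 45 members called lower at 72 h, and of the 106 probe sets of their own that the members have, 86 were brighter than the median and 72 of these were called lower with 0 higher.

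**Figure D3:**
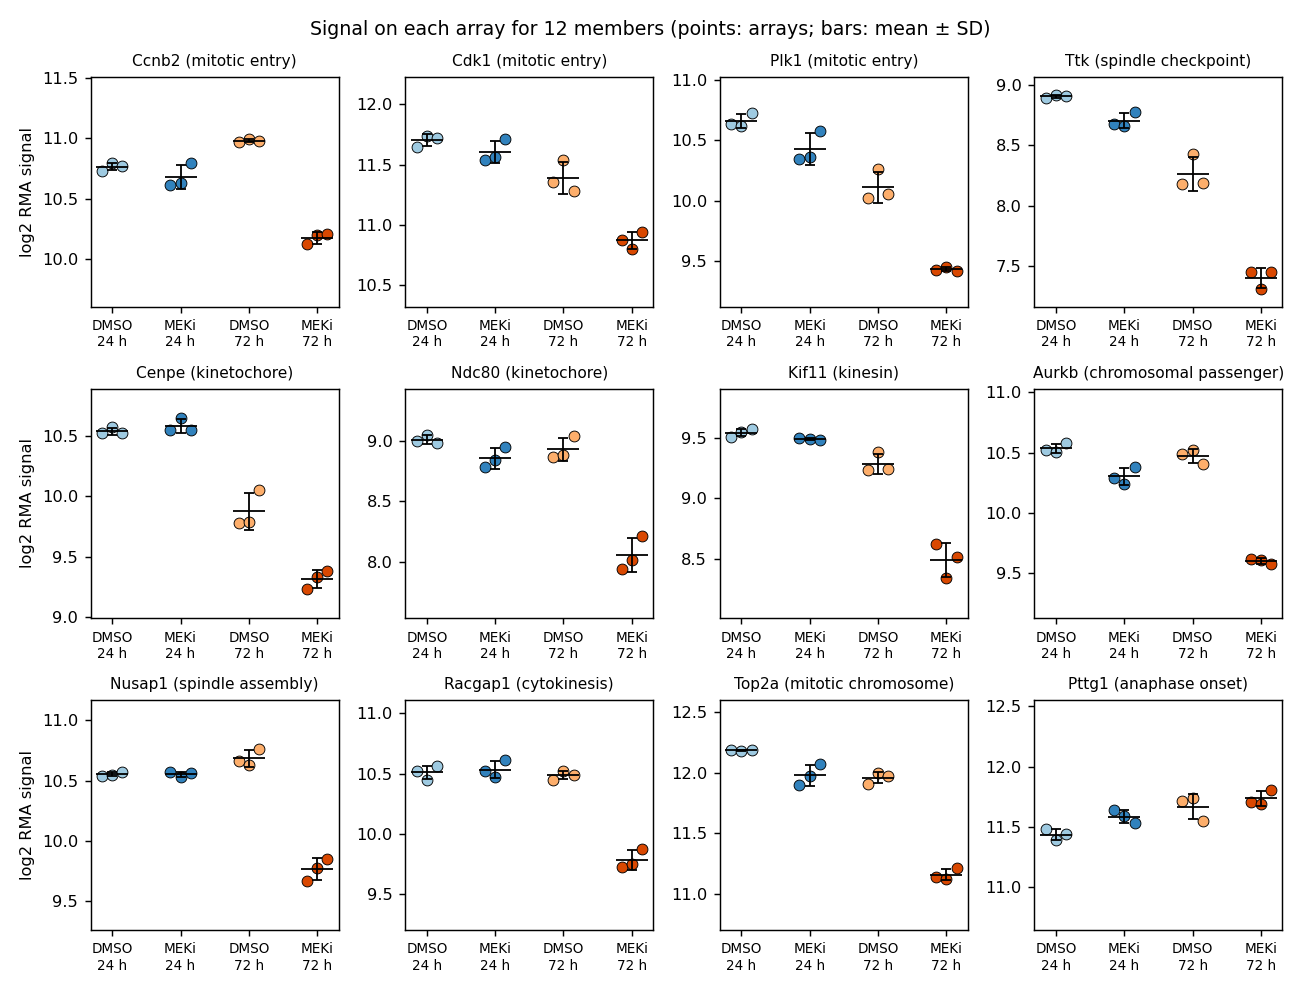
Log2 RMA signal (vertical axis, all panels spanning the same number of log2 units) on each array for 12 members in the 4 groups (horizontal axis), with points for arrays and bars for mean ± SD (n = 3). In 11 of the 12 the MEKi arrays at 72 h lie below all other arrays, while Pttg1 shows no such fall.

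The MEKi effect was larger at 72 h than at 24 h, which was tested as a contrast on all 12 arrays. The difference of the MEKi effects was below 0 for 47 members, with a median of -0.49 against 0 over all genes. It was called lower for 29 members and higher for 0, where 2.10% of all genes were called lower and 1.97% higher. Among genes brighter than the median probe set the shares were 3.18% and 3.06%. At unadjusted p under 0.05 limma gave 45 members lower and 0 higher, with no share of all genes counted. Nusap1 led, with no MEKi difference at 24 h and -0.92 at 72 h (difference of effects -0.92 ± 0.10, adjusted p = 0.000563). Nuf2 followed at -0.75 (adjusted p = 0.00130), Kif11 at -0.74, and Ndc80, Racgap1 and Ccnb2 each at -0.72. In these 6 genes the 24 h difference was between -0.15 and 0.08. All 4 chromosomal passenger genes and 6 of 8 kinetochore genes were called. Not all of these calls were firm. Of 18 alternative fits without a fold minimum, Incenp was called in 7, Spc24 in 9, Cdca8 and Cenpf in 11 each and Birc5 in 13. Aurkb, Cenpe, Ndc80, Nuf2 and Spc25 were called in all 18. Not called were 20 members, among them Plk1 (-0.45, adjusted p = 0.0610), Cdk1 (-0.42, adjusted p = 0.0704), Aurka (-0.49, adjusted p = 0.0824), Kif20a (-0.48, adjusted p = 0.0635), Cdc20 (-0.34, adjusted p = 0.121), Cenpa (-0.40, adjusted p = 0.113) and Foxm1 (-0.17, adjusted p = 0.609). For these genes an equal effect at both times was not shown. With the replicate number as a block 31 were called, with Plk1, Aurka and Ect2 added and Ncapg lost. Leaving out DMSO array 3 of 24 h gave 19.

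**Figure D4:**
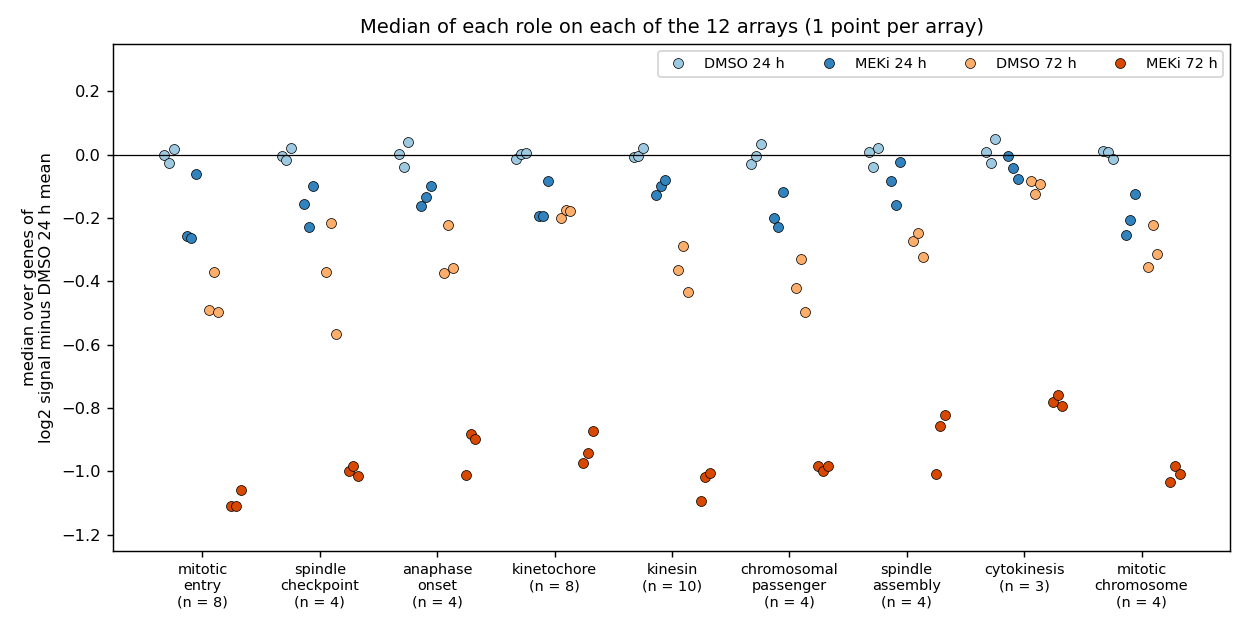
Median over the genes of each role (horizontal axis, number of genes in brackets) of the log2 signal minus that gene's mean on the DMSO arrays at 24 h (vertical axis), 1 point per array. MEKi arrays at 72 h lie at -0.76 or lower in every role, the arrays of the other 3 groups at -0.565 or higher.

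The set also fell with time in culture without the drug. From 24 h to 72 h in DMSO 33 members were called lower and 1, Ccnb2, higher, with a median of -0.33 against 0.04 over all genes, where 16.9% of all genes were called lower and 14.2% higher. Among genes brighter than the median probe set these shares were 26.7% and 17.9%. The 33 became 27 with the replicate block, 25 after quantile normalization again and 24 to 32 without 1 array. Kif20b, a kinesin of cytokinesis, had the largest change, from 9.84, 9.88 and 9.92 at 24 h to 9.07, 9.11 and 8.86 at 72 h (-0.87 ± 0.08, adjusted p = 0.000247). Espl1 fell by 0.71, Foxm1 by 0.66, Cenpe by 0.66 and Ttk by 0.64. Plk1 read 10.64, 10.62 and 10.73 at 24 h and 10.02, 10.26 and 10.06 at 72 h, a fall of 0.55. Other members kept their level within the spread. Racgap1 differed by -0.02, Spc24 by -0.03, Aurkb by -0.06 and Ndc80 by -0.08, with adjusted p between 0.489 and 0.841. For Racgap1 this depended on the probe set, since its next brightest one fell by 0.47 (adjusted p = 0.00172). Other probe sets above the median signal were likewise called where the one used was not in Bub1 (-0.71), Kif22 (-0.40 and -0.49), Ncapg (0.40) and Pttg1 (0.34). Ccnb2 went from 10.73, 10.79 and 10.77 to 10.97, 10.99 and 10.98, a difference of 0.22 ± 0.07 with an adjusted p of 0.0417 (0.0835 under the replicate block), and the call was lost without any 1 of the 6 arrays.

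Under MEKi the change with time was larger, which is the same contrast as the difference of the MEKi effects above. From 24 h to 72 h 45 members were called lower and 0 higher, with a median of -0.85 against 0.04 over all genes, where 16% of all genes were called lower and 13.5% higher (46 and 0 members at unadjusted p under 0.05 by limma). Of these falls 10 were at least 2-fold. Ttk read 8.68, 8.66 and 8.78 at 24 h and 7.45, 7.31 and 7.45 at 72 h (-1.30 ± 0.08, adjusted p = 1.27e-05). Cenpe went from 10.55, 10.65 and 10.55 to 9.23, 9.33 and 9.38 (-1.27 ± 0.08), and Kif20b, Espl1 and Cdc25b differed by -1.22, -1.20 and -1.19. Each of these 5 had also fallen with time in DMSO. Pttg1, Kif14, Kif15 and Kif22 were not called. All 33 members called lower with time in DMSO were lower with time under MEKi too. With 45 members called lower under MEKi, most of this overlap was set in advance, and it was not tested against all genes. The 2 comparisons share no arrays, but both set arrays of 24 h against arrays of 72 h. Any labeling batch that went with harvest time would enter both.

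**Figure D5:**
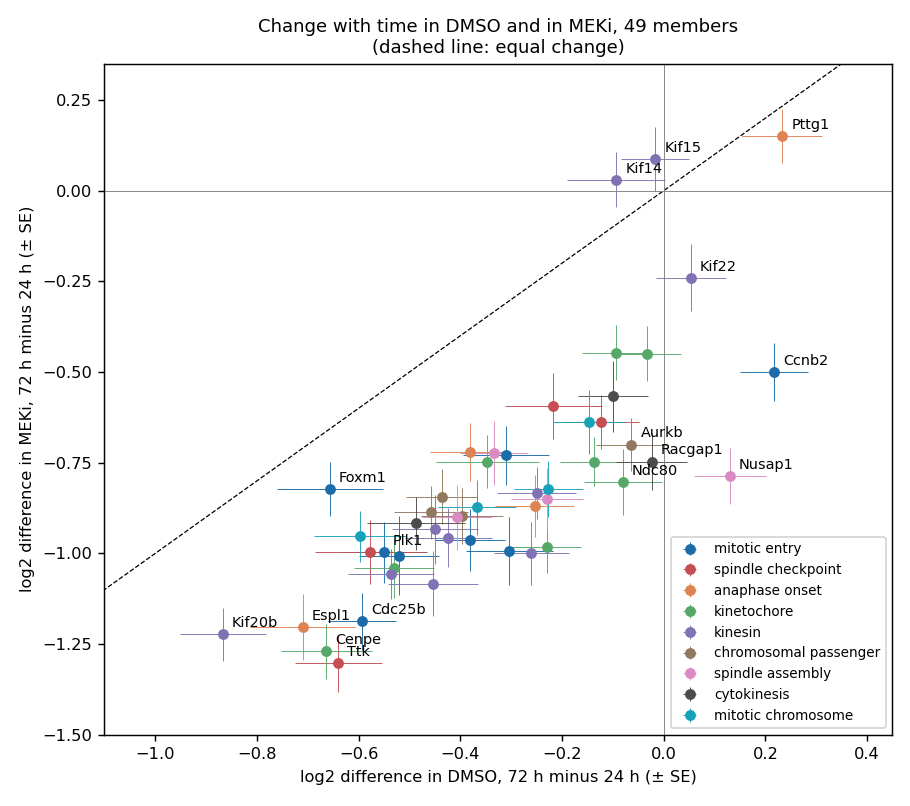
Log2 difference from 24 h to 72 h in DMSO (horizontal axis) and under MEKi (vertical axis) for the 49 members, colored by role, with bars for the SE (3 arrays per group). The dashed line marks equal change, and 47 members lie below it. Ttk and Cenpe fell in both, while Nusap1 and Aurkb were called lower under MEKi and not in DMSO.

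The levels of 33 members came in 1 order, with DMSO at 24 h highest, then MEKi at 24 h, DMSO at 72 h and MEKi at 72 h. In 6 members, Bub1, Cenpk, Ndc80, Spc24, Aurkb and Ncapg, DMSO at 72 h stood above MEKi at 24 h. In Ccnb2, Nusap1 and, on its brightest probe set, Kif22 it was the highest group. In Cenpe, Nuf2, Spc25 and Racgap1 the MEKi mean at 24 h was the highest, by differences that did not pass the test. Neighbors in these orders often differed by less than their spread, DMSO and MEKi at 24 h most of all. Of the 45 members lower with MEKi at 72 h, 32 were also called lower with time in DMSO and 13 were not, and these comparisons share the DMSO arrays of 72 h. The 32 and 13 rest on the calls in DMSO, whose number changed between fits. Harvest time also moved with the state of the arrays. The 3' to 5' difference of the Dap control averaged 2.055 ± 0.076 (SD) over the 6 arrays of 24 h and 1.415 ± 0.044 over the 6 of 72 h, and that of actin 0.277 ± 0.016 and 0.165 ± 0.033. Harvest time and any labeling batch cannot be told apart, and the part of these values in the changes with time was not tested. Within 72 h the Dap difference was 1.393 ± 0.047 with MEKi and 1.437 ± 0.035 with DMSO (n = 3 each). Within 24 h it was 2.08 ± 0.106 and 2.03 ± 0.035. The 18S rRNA controls at 24 h averaged 12.542 ± 0.105 with MEKi and 12.206 ± 0.125 with DMSO. The interquartile range of the arrays at 24 h was 4.253 ± 0.012 and 4.31 ± 0.02. The part of these values in the 24 h results was not tested.

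A further 101 measured genes of the same processes, listed outside the set, fell for the most part too. At 72 h 66 were lower with MEKi and 2 higher, with a median of -0.47, and at 24 h 9 were lower and 1 higher, with a median of -0.14. The largest falls at 72 h were those of Fbxo5, which is EMI1, the inhibitor of the anaphase-promoting complex (-1.02), Psrc1, a spindle protein (-1.02), Depdc1b (-0.997) and Oip5, a centromere loading factor (-0.98). Higher at 72 h were Zwint, a kinetochore protein (0.57 ± 0.11, adjusted p = 0.0119), and Lin37, a subunit of MuvB (0.44 ± 0.11, adjusted p = 0.0413). At 24 h the largest falls were those of Mybl2, which is B-MYB (-0.50), Fbxo5 (-0.41), Bora, which activates Plk1 through Aurora A (-0.39), and Cdc25a (-0.35). Of the 14 core subunits of the anaphase-promoting complex, whose genes are not known for periodic expression, 1 was lower at 72 h and 0 higher, with a median of -0.09, and 1 of their 15 promoter windows had a CHR match.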

How the data were processed

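RNA of 12 B16-OVA cell samples was hybridized by the authors to Affymetrix whole-genome mouse arrays, 3 in each of 4 groups. The deposited values are log2 RMA signals rounded to 2 decimals, for 45101 probe sets. RMA corrects background, makes the distributions of arrays alike and summarizes probes, so a change shared by most genes would be reduced. The interquartile range of the deposited values still ran from 4.06 to 4.33 over the arrays. The study's methods name Chipster for such arrays, and versions are not given in the sources used here. Groups came from the sample labels, and no column of values was left unmapped.

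The 64 control probe sets were left out, and log2 signal of the other 45037 was fitted with limma (version 3.58.1, R 4.3.3), lmFit and eBayes, on the 6 arrays of each pair of groups or, for the difference of the MEKi effects, on all 12. Tests were two-sided, with Benjamini-Hochberg adjustment over 45037 probe sets and a threshold of 0.05. The platform annotation paired 34945 probe sets with 1 gene, 932 with several and 9160 with none. The workflow was tested on simulated data. The study tested pairs of groups likewise. Shares of all genes called are over the 18193 genes.

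Members and lists were chosen with earlier results of these data known. Always named were Plk1, Cdc20, Cdk1, Aurka, Aurkb, Bub1, Ttk, Kif11, Kif20a, Top2a, Cenpa, Cenpe, Ndc80, Birc5, Foxm1 and Mki67. Added were the members with the largest and smallest difference in each role, called members against the majority sign and the 4 largest called differences among other mitotic genes. Other members named, the promoters shown and the genes of opposite direction were chosen after their values were seen. Some listed genes are not reported here. A list of 9 cell cycle brakes had 0 called at 24 h and 1 lower, Rbl1, at 72 h.

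Whether the replicate numbers of the titles pair arrays was checked from the correlation of deviations from the group means. Over probe sets brighter than the median, a DMSO and a MEKi array of 1 number had correlations of 0.207 to 0.283 at 24 h and 0.214 to 0.307 at 72 h, and over all probe sets at 0.073 to 0.151 and 0.13 to 0.189. Arrays with different numbers reached at most 0.032 within a time. Across times the same number gave 0.01 to 0.06 in DMSO and -0.015 to 0.202 under MEKi, where different numbers reached 0.188. The number was thus used as a block in an alternative fit.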

Additional observations from a re-analysis of the deposited data

Results flagged for a closer look

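The results here were picked out because the MEKi effect differed between the harvest times by a test of the difference itself, the limma contrast on all 12 arrays. It was called lower for 29 of the 49 members. Of the members that were always to be named or stood at the ends of their role, Nusap1 differed most, by -0.92, ahead of the outer kinetochore pair Nuf2 (-0.75) and Ndc80 (-0.72). Kif11, the spindle motor, differed by -0.74, Racgap1 of centralspindlin by -0.72 and the cyclin Ccnb2 by -0.72. The checkpoint kinases Ttk and Bub1 differed by -0.66 and -0.51, the conjugating enzyme Ube2c by -0.62 and the motor Cenpe by -0.61. In the chromosomal passenger complex the values were -0.64 for Aurkb, -0.50 for Birc5 and -0.41 for Incenp. Top2a and Mki67 differed by -0.60 and -0.51. With the mean of a gene's probe sets the calls of Ttk, Incenp and Top2a were lost (adjusted p = 0.297, 0.0759 and 0.110 by limma). Those of Birc5, Incenp and Mki67 were lost in some fits without 1 array. Harvest time cannot be told apart from a labeling batch, and its part in these values was not tested.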

How the results depend on the processing

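Alternatives were compared by the number of members called. Lower with MEKi at 24 h were 6 members, 15 over brighter probe sets, 18 with a trended and robust prior and 0 to 12 without 1 array, and 1 was higher (Pttg1) with that prior. A 2-fold minimum left 0 lower at 24 h, 0 at 72 h, 0 in the difference of effects, 0 in DMSO over time and 10 under MEKi over time. The difference of effects had 19 to 35 lower without 1 array. Higher in DMSO over time was 1 member, 2 with all 12 arrays in 1 fit, over brighter probe sets, after quantile normalization again, with the trended and robust prior or with the mean of a gene's probe sets, and 0 with the replicate block, with arrays centered on their median or with a 2-fold minimum, and 0 to 1 without 1 array. Under MEKi over time the mean of probe sets gave 1 higher. The cause was not tested. The replicate block gave 5 lower at 24 h, 45 at 72 h, 31 for the difference of effects and 27 for time in DMSO. Time in DMSO had 25 lower after quantile normalization again and 24 to 32 without 1 array.

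Signs turned only for differences that were not called, over all 49 members. At 24 h Cdc25c became 0.0164 after quantile normalization, Cenpe -0.0267 and Racgap1 -0.0678 with the mean of probe sets. Without 1 array Cdc25c ranged from -0.0767 to 0.0333 and Racgap1 from -0.015 to 0.055. In DMSO over time quantile normalization gave Ndc80 0.0168, Spc24 0.0557, Aurkb 0.0046 and Racgap1 0.0468, the mean of probe sets gave Ncapg 0.1267 and Kif22 -0.2789 (adjusted p = 0.016 by limma, while its brightest probe set had 0.0533), centered arrays gave Kif22 -0.01, and without 1 array Kif15 ranged from -0.03 to 0.005 and Racgap1 from -0.0533 to 0.0017. Under MEKi over time Kif14 became -0.0433 with centered arrays and -0.0236 after quantile normalization, and ranged from -0.01 to 0.06 without 1 array. Among the values of the members named by rule in each comparison, 1823 kept direction and side of the threshold, 71 passed it newly, 90 lost it and 17 changed sign. With 3 arrays per group, small differences such as those at 24 h lie near the spread between arrays.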
